A study of Mus musculus with 13 samples.

Results

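The genes described here are 10 genes of synaptopodin, the spine apparatus and intracellular calcium stores: Synpo, Actn1, Actn2, Actn4, Ryr2, Ryr3, Itpr1, Atp2a2, Stim1 and Stim2. They were taken by symbol, and all 10 were found among the 55291 gene symbols counted in every library. RNA was sequenced from the CA1 region of organotypic entorhino-hippocampal tissue cultures of wildtype C57BL/6 mice, prepared at postnatal day 4 to 5 and grown for 18 or more days in vitro. The groups were 5 non-lesioned control cultures, 4 cultures 3 days after a Schaffer collateral lesion (SCL), which cuts the CA3 axons that reach CA1, and 4 cultures 3 days after an entorhinal cortex lesion (ECL), which severs the entorhinal input to CA1. All 3 groups carried no transgene or drug treatment in their labels, and animals of either sex were used. Each library came from the CA1 region of a single culture, homogenised as a whole, so neurons and glia were sampled together. Nothing states that the cultures of a group came from separate animals, so p-values measure the spread between these cultures. Titles and tissue labels name CA1, whereas the protocol text names the dentate gyrus.

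The spine apparatus is a stack of smooth endoplasmic reticulum inside a subset of dendritic spines, and the actin-associated protein synaptopodin is required for its formation. It serves as a local calcium store: ryanodine and IP3 receptors release calcium from it, SERCA pumps refill it, and STIM proteins sense its filling and open calcium channels in the plasma membrane. In CA1 pyramidal neurons, synaptopodin-containing spines are on average larger and have stronger synapses, and synaptopodin has been tied to homeostatic plasticity. Alpha-actinins crosslink actin filaments and bind synaptopodin.

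Library totals ran from 14371152 to 56786613 counts, and the deepest libraries belonged to the lesion groups. The 5 CA1 pyramidal cell markers summed to between 222 and 299 CPM (counts scaled to the size of the library) in the controls, the 5 CA3 markers to between 22.2 and 50.9 CPM, and the 5 dentate granule cell markers to between 14.4 and 22.02 CPM. After SCL these sums spanned 232 to 265, 26.7 to 34.1 and 11.2 to 15.1 CPM, and after ECL 193 to 405, 19.5 to 27.9 and 12.6 to 18.2 CPM. Of the CA1 markers, 1 of 5 tested fell after SCL (Pou3f1, by 0.82 on the log2 scale) and none was called after ECL. Of the CA3 markers, 1 of 3 tested fell after SCL and the only 1 tested fell after ECL (Lypd1 in both, by 0.98 and 1.16), and the 1 dentate marker tested was not called. All 12 microglia markers were called higher after SCL and 8 of 12 after ECL. The log2 fold changes of those not called after ECL ran from 0.02 (Itgam) to 0.59 (P2ry12). The summed level of the 12 markers spanned 944 to 1113 CPM in controls, 1723 to 3114 CPM in SCL and 1701 to 2442 CPM in ECL libraries. In all these marker counts, rose and fell stand for genes called. Of 9 general neuron markers, 1 fell after SCL and 3 fell after ECL, and their sum ran from 3909 to 4586, from 3313 to 4437 and from 3347 to 4737 CPM. Of 10 astrocyte markers, 4 rose after SCL, and 3 rose and 2 fell after ECL. Of 10 oligodendrocyte markers, 2 rose after each lesion, and of 7 interneuron markers, 1 rose and 1 fell after SCL and 1 rose and 2 fell after ECL. Of 10 vascular and mural markers, 3 were tested and 1 fell after each lesion. Over all genes tested, 24.6% were called after SCL and 27.6% after ECL. A few calls in a short list therefore do not by themselves show a change of that cell type. No marker on these lists was at 0 in all libraries. In bulk tissue, fewer cells of a type and less RNA per cell cannot be told apart. Sex in the column headings was uneven, with 2 male and 3 female cultures among controls, 1 and 3 after SCL and 3 and 1 after ECL, and a sex term in the fit changed no call of the genes described.

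Levels were first compared within the non-lesioned controls, as CPM on a common scale per kilobase of exon, so that genes of different length could be set side by side. Atp2a2, which encodes the SERCA2 pump, was far above the others at 77.6 ± 12.0 CPM per kb (SD, n = 5). Stim2 followed at 13.2 ± 2.29, Itpr1 at 9.08 ± 2.07 and Synpo at 8.84 ± 1.49 CPM per kb, and the ranges of these neighbours overlapped. Actn1 stood at 4.31 ± 0.44 CPM per kb and did not overlap with Synpo. Below it came Ryr2 at 3.44 ± 0.68, Stim1 at 2.43 ± 0.89, Actn4 at 1.94 ± 0.64, Ryr3 at 1.57 ± 0.40 and Actn2 at 1.34 ± 0.57 CPM per kb, each overlapping its neighbour in this order. The order therefore held 3 separated steps: Atp2a2, then the run from Stim2 to Synpo, then the run from Actn1 to Actn2. The length of a gene here joins the exons of all its annotated transcripts, and another choice of length could change this order. After SCL and after ECL the first 3 places were again Atp2a2, Stim2 and Itpr1. Actn4 moved from place 8 in controls to place 5 after SCL and place 4 after ECL, where it stood at 4.93 ± 1.10 CPM per kb (n = 4) next to Synpo at 4.45 ± 1.08.

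**Figure D1:**
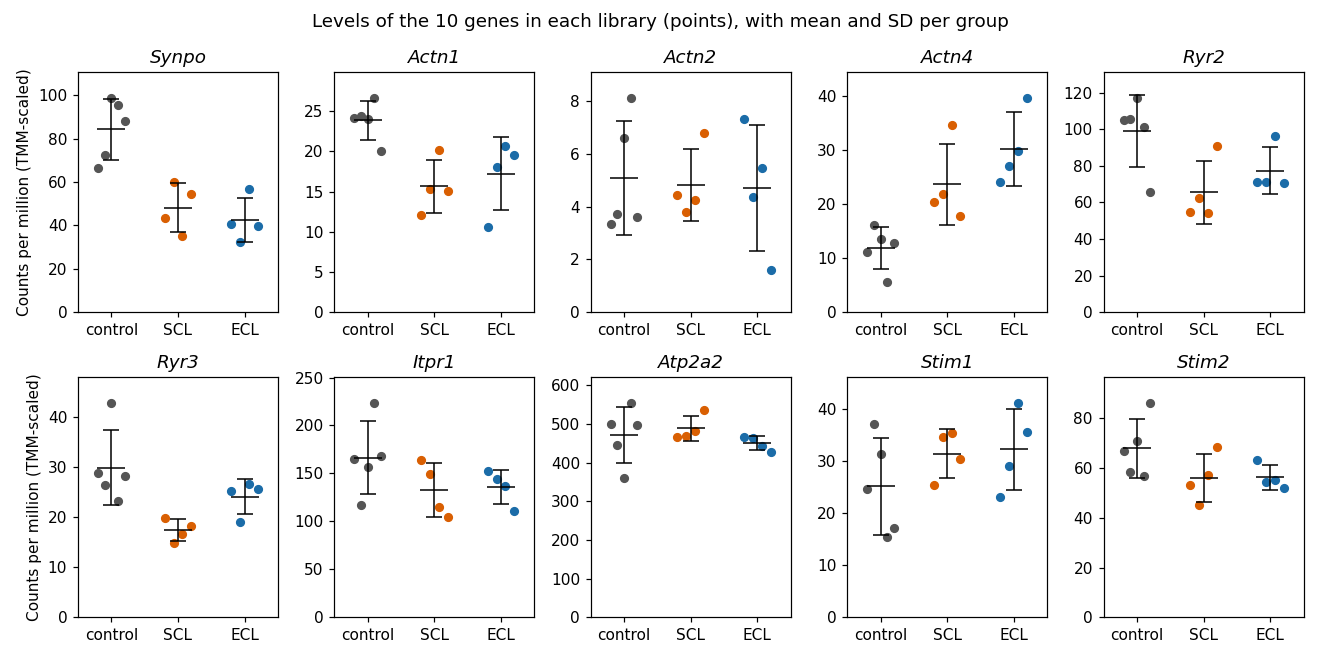
CPM of each of the 10 genes (vertical axes, each starting at 0) in the control, SCL and ECL libraries. Points are libraries, horizontal bars the group mean and the SD; Synpo was at or above 66.3 CPM in every control and at or below 59.8 CPM in every lesioned culture, whereas Actn4 was at or below 16.2 CPM in every control and at or above 17.8 CPM in every lesioned culture.

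Each lesion was then compared with the 5 controls across all genes, to ask which genes of the spine apparatus and its stores differed 3 days after the loss of either input. After SCL, 5 of the 10 genes passed the test: Actn4 rose, and Synpo, Actn1, Ryr2 and Ryr3 fell. After ECL, 2 of the 10 passed it: Actn4 rose and Synpo fell. In the background of the SCL comparison 24.6% of 11733 genes tested were called, 13% higher and 11.6% lower, and in the ECL comparison 27.6% of 11392, 15.1% higher and 12.4% lower. CPM ranges were fully separated between SCL and control for Synpo, Actn4 and Ryr3, 3 of the 9 genes tested (23.3% of all genes tested). Between ECL and control they were separated for Synpo and Actn4, 2 of the 9 (24.9% of all genes tested). Over the 9 genes the median log2 fold change was -0.32 after SCL and -0.28 after ECL, against 0.01 and -0.01 over all genes tested. Both comparisons used the same 5 controls and are not independent of each other. Scaling over all symbols instead of over the genes tested moved the median of all genes by 0.21 after SCL and 0.18 after ECL and raised the share of calls that were higher from 52.9% to 80.9% and from 54.9% to 78.0%. Under that scaling Synpo and Actn4 were still called in both comparisons and Ryr3 after SCL.

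**Figure D2:**
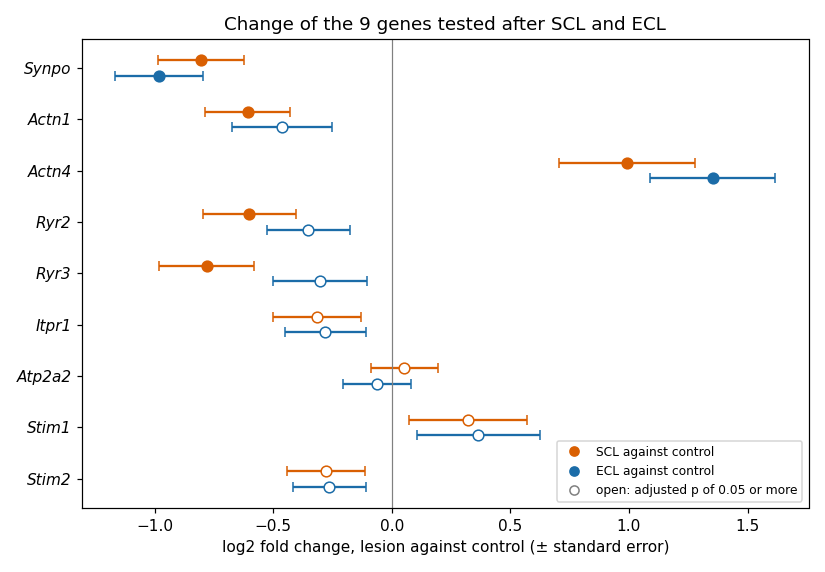
log2 fold change (horizontal axis) of the 9 genes tested after SCL and ECL against control, with the standard error as bars. Filled points have an adjusted p under 0.05: 5 genes after SCL and 2 after ECL, with Synpo below 0 and Actn4 above 0 in both.

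Synpo encodes synaptopodin itself and lies on the minus strand of chromosome 18, at positions 60593973 to 60660142 of GRCm38, with 9533 bases of exon that no other annotated gene overlaps. In the controls it was counted at 66.3, 72.5, 98.9, 95.4 and 88.0 CPM. After SCL the 4 libraries held 43.4, 59.8, 34.9 and 54.6 CPM, and after ECL 40.6, 32.6, 56.98 and 39.7 CPM. Every lesioned culture lay below every control, while the lesion groups overlapped each other. Synpo fell by 0.81 on the log2 scale after SCL (SE 0.18, a 1.75-fold lower level, adjusted p = 0.00843, edgeR's quasi-likelihood test) and by 0.98 after ECL (SE 0.19, 1.97-fold lower, adjusted p = 0.00195). It was lower in 4 of 4 cultures of either lesion, and its call held in 20 of 20 alternatives in both comparisons, where the log2 fold change spanned -0.92 to -0.59 for SCL and -1.15 to -0.78 for ECL. In the same libraries 1 of 9 neuron markers and 1 of 5 CA1 markers fell after SCL. After ECL 3 of 9 neuron markers and 0 of 5 CA1 markers fell. The CA3 marker Lypd1 fell after both lesions, as given above. The part of these cells in the result was not tested.

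The genes whose levels followed Synpo most closely over the 13 libraries were Chgb, Rbm10 and Pus1, chosen from 11363 genes by the root mean square difference of log2 CPM after each gene was centred on its own mean. The differences were 0.13, 0.14 and 0.14 on the log2 scale, against a median of 0.59 over all genes. Chgb, the secretory granule protein chromogranin B, stood at 293 ± 29.8 CPM in 5 controls, 167 ± 30.9 CPM in 4 SCL libraries and 160 ± 20.8 CPM in 4 ECL libraries (mean ± SD). Rbm10, an RNA-binding splicing regulator, stood at 38.3 ± 6.23, 22.0 ± 4.68 and 20.5 ± 4.94 CPM. Pus1, a pseudouridine synthase, stood at 15.3 ± 2.57, 9.88 ± 2.54 and 7.83 ± 2.00 CPM. None of the other 9 genes was among the nearest, and those tested in both comparisons lay at root mean square differences from 0.40 (Ryr2) to 1.17 (Actn4).

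Of the alpha-actinins, Actn4 rose after both lesions, Actn1 fell after SCL, and Actn2 was too rare to be tested. Actn1 and Actn4 encode the widely expressed non-muscle alpha-actinins, and Actn2 encodes the form best known from muscle that also binds NMDA receptors in spines. Actn1 lies at chr12:80167547-80260371 and Actn4 at chr7:28893248-28962340 of GRCm38, both on the minus strand. Their coding sequences are 80.5% identical, and the longest stretch they share without a mismatch is 65 bases, in exon 10 of both genes (chr12:80183394-80183458 and chr7:28905226-28905290). It is shorter than the reads of the study, so only a read trimmed to lie within it could not be assigned to either gene. It is shown as the longest coding run that does not separate these genes.
Actn1 and Actn4, shared: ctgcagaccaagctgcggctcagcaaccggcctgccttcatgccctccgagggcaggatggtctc
Actn1 and Actn2 share at most 38 bases and Actn2 and Actn4 at most 29.

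Actn4 rose after both lesions. Its controls held 11.2, 16.2, 13.6, 5.62 and 12.8 CPM, the SCL libraries 20.4, 21.8, 34.6 and 17.8 CPM and the ECL libraries 24.1, 27.1, 29.9 and 39.7 CPM. All 8 lesioned cultures were above all 5 controls, and SCL and ECL overlapped. The log2 fold change was 0.99 after SCL (SE 0.29, 1.99-fold, adjusted p = 0.0247, edgeR) and 1.35 after ECL (SE 0.27, 2.55-fold, adjusted p = 0.00247). After SCL the call was lost without SCL 3, the highest library (0.75, adjusted p = 0.101), and without control 1 (0.97, adjusted p = 0.0510), and also with a block for the numbers in the column headings (0.92, adjusted p = 0.0568), whereas after ECL it held in 20 of 20 alternatives. Microglia markers were higher in the same libraries, with the summed levels given above, and their part in the Actn4 result was not tested. Of the exon bases of Actn4, 5.16% are shared with Capn12 on the opposite strand, which counting without strand cannot separate.

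Actn1 went the other way after SCL. It was counted at 24.2, 24.4, 24.0, 26.7 and 20.01 CPM in controls, at 12.1, 15.3, 20.1 and 15.1 CPM after SCL and at 10.6, 18.1, 20.7 and 19.6 CPM after ECL. In both lesion groups a single library (SCL 3 or ECL 3) reached just above the lowest control, control 5, so the ranges overlapped. The fall of 0.61 on the log2 scale after SCL passed the test (SE 0.18, 1.52-fold lower, adjusted p = 0.0275, edgeR), and the log2 fold change of -0.46 after ECL did not (SE 0.21, adjusted p = 0.113). Without control 1 (-0.60), SCL 1 (-0.50), SCL 2 (-0.59) or SCL 4 (-0.59) the adjusted p after SCL lay between 0.0510 and 0.0786. The call was also lost with the heading block (-0.61, adjusted p = 0.0614) and where scaling was over all symbols, with the minimum count (-0.40, adjusted p = 0.127) or without it (-0.40, adjusted p = 0.235). Exon bases shared with the antisense genes Gm47766 and Gm47767 made up 8.15% of Actn1.

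Actn2 was too rare for the test, with mean normalized counts from 105 to 148 per fit where 150 were required. Its libraries held 3.34, 3.74, 6.62, 8.14 and 3.63 CPM in controls, 4.45, 3.78, 4.24 and 6.81 CPM after SCL, and 7.33, 4.38, 5.45 and 1.61 CPM after ECL. The 3 groups overlapped throughout, and both the lowest and the second highest library of all came from ECL. The group means were 5.09 ± 2.16 CPM in 5 controls, 4.82 ± 1.35 CPM in 4 SCL libraries and 4.69 ± 2.39 CPM in 4 ECL libraries (mean ± SD), so the means differed by less than the spread within the groups. A fit without a minimum count gave a log2 fold change of 0.14 for either lesion (SE 0.36 each). That fit scaled over all symbols, which raised the fold changes of the other genes as well, as given above, and the sign for Actn2 differs from that of the means.

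Set against each other within a library, Actn1 led Actn4 in every control and Actn4 led Actn1 in every lesioned culture. The log2 ratio of Actn4 to Actn1 counts was -1.11, -0.59, -0.82, -2.25 and -0.64 in controls, 0.75, 0.51, 0.78 and 0.24 after SCL, and 1.18, 0.58, 0.53 and 1.02 after ECL. This pair was chosen after the values were seen, so it carries no test. Per length, Actn4 made up 25.7 ± 8.41% of the summed alpha-actinin level in the 5 controls, 47.9 ± 6.36% in the 4 SCL libraries and 52.8 ± 6.27% in the 4 ECL libraries (mean ± SD). Actn1 made up 56.9 ± 4.31%, 35.5 ± 2.20% and 33.2 ± 5.89%, and Actn2 17.4 ± 6.51%, 16.5 ± 5.80% and 14.04 ± 8.49%.

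**Figure D3:**
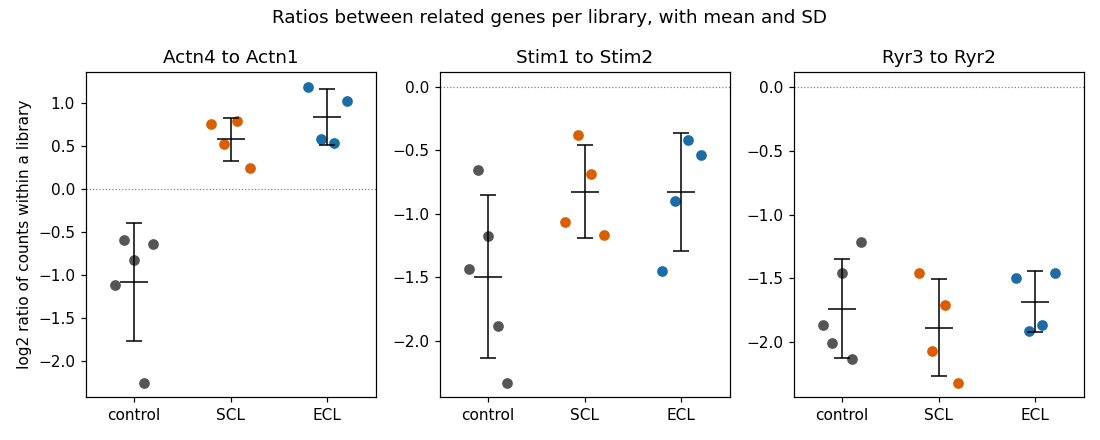
log2 ratio of counts within each library (vertical axes) for Actn4 to Actn1, Stim1 to Stim2 and Ryr3 to Ryr2 in control, SCL and ECL libraries, with the mean and SD per group; the dotted line marks equal counts. Actn4 to Actn1 lay at or below -0.59 in every control and at or above 0.24 in every lesioned culture, while the other ratios overlapped between groups.

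Promoter sequences (RefSeq, GRCm38.p6) were at hand for 6 of the 10 genes: Actn1, Actn2, Actn4, Ryr2, Stim1 and Stim2. The 250 bases before the start of Actn1 (chr12:80260364-80260613, minus strand) and Actn4 (chr7:28962333-28962582, minus strand) are shown because both genes passed the test after SCL in opposite directions. Capitals mark matches, on either strand, to the GC box (GGGCGG) and the AP-1 motif (TGANTCA).
Actn1: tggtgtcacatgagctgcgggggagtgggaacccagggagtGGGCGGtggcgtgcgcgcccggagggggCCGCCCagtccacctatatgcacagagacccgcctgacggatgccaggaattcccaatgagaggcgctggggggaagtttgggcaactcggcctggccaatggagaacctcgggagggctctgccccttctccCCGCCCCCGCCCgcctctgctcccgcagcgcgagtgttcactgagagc
Actn4: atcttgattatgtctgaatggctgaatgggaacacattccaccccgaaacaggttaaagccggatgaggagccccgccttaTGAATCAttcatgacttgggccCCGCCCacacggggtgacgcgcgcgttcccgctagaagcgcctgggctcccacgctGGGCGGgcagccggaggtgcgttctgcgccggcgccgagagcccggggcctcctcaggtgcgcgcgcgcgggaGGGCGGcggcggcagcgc
Actn1 held 4 GC boxes, at 209, 181, 48 and 42 bases before the start, and Actn4 held 3, at 147, 91 and 18 bases. GC boxes were found in 32.7% of 32851 windows of the same length. Actn4 held 1 AP-1 motif, 169 bases before the start, which 6.75% of the windows held, and none of the other 5 genes held it. The cAMP response element TGACGTCA (1.55% of windows), the EGR motif GCGTGGGCG (0.536%) and the CArG box of serum response factor (1.47%) were not found in any of the 6, and the E-box CACGTG (6.02%) only in Actn2. A match is a run of letters and shows no binding.

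The ryanodine receptors, which amplify calcium signals by releasing store calcium when cytosolic calcium rises, were lower after SCL. Ryr2 (chr13:11553102-12106945, minus strand) is the form known from heart that also prevails in forebrain, and Ryr3 (chr2:112631355-113217096, minus strand) is enriched in CA1 among brain regions. Their coding sequences are 68.5% identical with no shared run longer than 30 bases, split over an exon junction. No longer read from these coding sequences matches both genes without a mismatch.

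Ryr2 held 105, 106, 117, 101 and 65.7 CPM in controls, 54.5, 62.2, 54.3 and 90.7 CPM after SCL, and 70.9, 71.1, 96.5 and 70.3 CPM after ECL. Control 5 lay well below the other controls, and SCL 4 and ECL 3 lay above the rest of their groups, so the ranges overlapped. Ryr2 fell by 0.60 on the log2 scale after SCL (SE 0.20, 1.52-fold lower, adjusted p = 0.0410, edgeR), and its log2 fold change after ECL was -0.35 (SE 0.18, adjusted p = 0.152). The call after SCL was lost without control 1, 2, 3 or 4 and without SCL 1, 2 or 3 (log2 fold changes from -0.60 to -0.52, adjusted p from 0.0562 to 0.120), and without control 5 the ECL difference passed the test (-0.47, adjusted p = 0.0411). With a correction of the fit for exon length and base composition the log2 fold change of Ryr2 was -0.17 after SCL (adjusted p = 0.501) and 0.02 after ECL (adjusted p = 0.952); its 28790 bases of exon are the most among the 10 genes. Scaling over all symbols also ended the SCL call, with the minimum count (-0.40, adjusted p = 0.123) or without it (-0.40, adjusted p = 0.147).

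Ryr3 was counted at 28.8, 26.3, 42.8, 23.1 and 28.3 CPM in controls and at 19.9, 14.8, 16.6 and 18.2 CPM after SCL, without overlap. After ECL it stood at 25.1, 18.9, 26.5 and 25.6 CPM, within reach of the lower controls. It fell by 0.78 on the log2 scale after SCL (SE 0.20, 1.72-fold lower, adjusted p = 0.0149, edgeR), and after ECL the log2 fold change was -0.30 (SE 0.20, adjusted p = 0.273). The SCL call was lost without SCL 2 (-0.71, adjusted p = 0.0507), under the correction for length and base composition (-0.45, adjusted p = 0.106) and without a minimum count (-0.57, adjusted p = 0.0692). Of its exon bases, 4.83% are shared with Aven on the opposite strand. The log2 ratio of Ryr3 to Ryr2 differed by -0.15 between SCL and control (SE 0.26, p = 0.571, exact permutation test, two-sided). After adjustment this test could not have called a single ratio, as given below, so nothing is concluded on the balance of the pair.

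Itpr1, the IP3 receptor that releases store calcium downstream of metabotropic glutamate receptors, was not called in either comparison. Its controls held 165, 117, 157, 224 and 169 CPM, the SCL libraries 164, 149, 115 and 104 CPM and the ECL libraries 153, 144, 137 and 111 CPM, and all 3 groups overlapped. The log2 fold change was -0.32 after SCL (SE 0.18, adjusted p = 0.224, edgeR) and -0.28 after ECL (SE 0.17, adjusted p = 0.243). With the correction for length and base composition these values were 0.01 and -0.02. Itpr1 lies at chr6:108213096-108551109 on the plus strand and, like both ryanodine receptors, is a long gene, with 18319 bases of exon.

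Atp2a2, the pump that refills the store, was the steadiest of the 10 genes in the lesioned cultures. It stood at 500, 446, 362, 555 and 498 CPM in controls, at 467, 470, 483 and 536 CPM after SCL and at 466, 465, 443 and 428 CPM after ECL. The controls spanned both lesion groups, and their coefficient of variation of 15.4% compared with 6.57% after SCL and 4.07% after ECL. SCL and ECL did not overlap each other, by a narrow margin: the highest ECL library held 465.7 CPM and the lowest SCL library 466.6 CPM. The direct comparison of the lesions did not call Atp2a2 (adjusted p = 0.890, edgeR). The log2 fold change was 0.05 after SCL (SE 0.14, adjusted p = 0.810, edgeR) and -0.06 after ECL (SE 0.14, adjusted p = 0.788). It turned to -0.03 after SCL without control 3, the lowest control. The log2 ratio of Itpr1 to Atp2a2, release against uptake, differed by -0.38 between SCL and control (SE 0.23, p = 0.127, exact permutation test) and by -0.21 between ECL and control (SE 0.14, p = 0.175).

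The store sensors Stim1 (chr7:102267806-102437319) and Stim2 (chr5:53998499-54121057), both on the plus strand, were not called either. Stim2, which responds to small losses of store calcium and is the main form in hippocampal neurons, held 66.8, 58.6, 70.8, 56.9 and 86.2 CPM in controls, 53.2, 45.0, 57.1 and 68.6 CPM after SCL and 63.3, 54.5, 55.2 and 51.9 CPM after ECL. Stim1, which opens ORAI channels after larger losses, held 24.7, 37.2, 31.4, 15.4 and 17.1 CPM, 25.4, 34.6, 35.5 and 30.5 CPM, and 23.2, 29.1, 41.2 and 35.6 CPM. Stim1 varied widely among the controls, with a coefficient of variation of 36.8%, and all groups overlapped for both genes. The log2 fold changes of Stim1 were 0.32 after SCL (SE 0.25, adjusted p = 0.366, edgeR) and 0.36 after ECL (SE 0.26, adjusted p = 0.316). Those of Stim2 were -0.28 (SE 0.17, adjusted p = 0.234) and -0.26 (SE 0.15, adjusted p = 0.217). The log2 ratio of Stim1 to Stim2 was -1.50 ± 0.64 in the 5 controls and, with 4 libraries each, -0.83 ± 0.36 in SCL and -0.83 ± 0.46 in ECL (mean ± SD), a difference of 0.67 for SCL (SE 0.34, p = 0.111, exact permutation test) and 0.67 for ECL (SE 0.37, p = 0.143).

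In all, 18 differences of ratios were tested, 6 ratios in 3 comparisons, and none had an adjusted p under 0.05. The smallest exact p was 0.0476, for a log2 ratio of Synpo to Actn2 that was 4.13 ± 0.41 in controls and 3.33 ± 0.45 after SCL (adjusted p = 0.349, exact permutation test). The smallest p these designs can give is 0.0159 for 5 against 4 libraries and 0.0286 for 4 against 4. After adjustment over 18 tests, a single ratio at that smallest p would still not have passed 0.05. These tests therefore could not have called a shift of a single ratio, and no conclusion is drawn from the lack of calls.

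**Figure D4:**
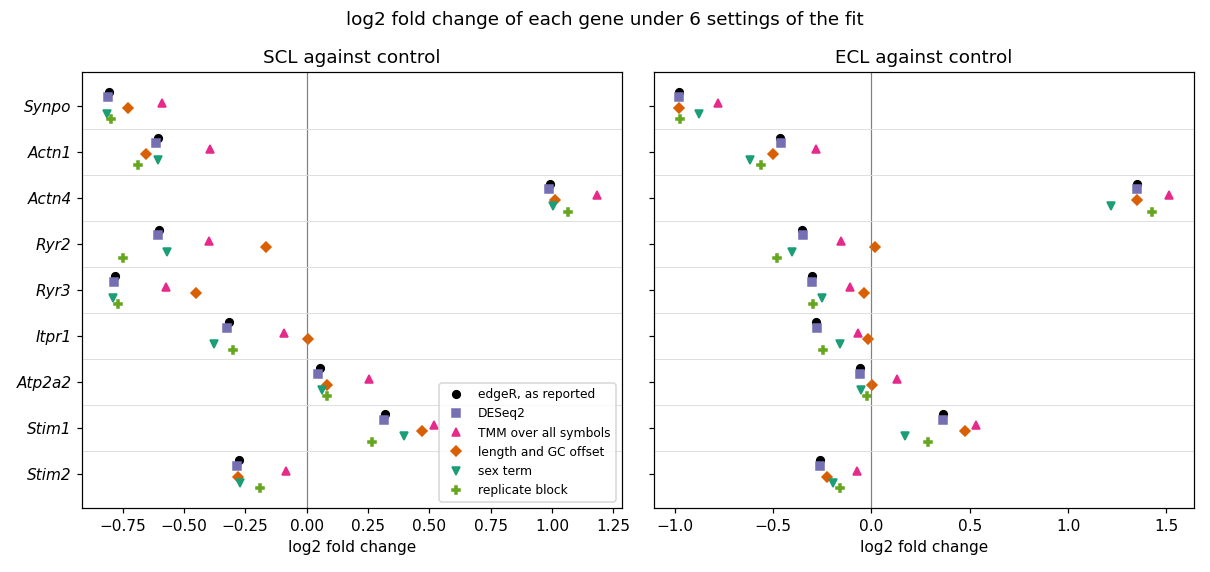
log2 fold change (horizontal axes) of the 9 genes tested under 6 settings of the fit, for SCL and ECL against control. Synpo spanned -0.81 to -0.59 for SCL and -0.98 to -0.78 for ECL, while Ryr2 moved from -0.60 to -0.17 after SCL with the correction for length and base composition (length and GC offset in the legend).

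ECL and SCL were also compared directly, to ask whether the store genes differed by which input was lost. None of the 9 genes tested was called, and neither was any other of the 12478 genes in that fit (0.00% called, edgeR). Over all genes, 918 had an unadjusted p under 0.05, and DESeq2 called 64. Of the 9 genes, 1 had an unadjusted p under 0.05: Ryr3 was higher after ECL by 0.48 on the log2 scale (SE 0.16, adjusted p = 0.566, edgeR), with ECL 2 inside the SCL range. The log2 difference was -0.17 for Synpo (SE 0.21), 0.15 for Actn1 (SE 0.23), 0.36 for Actn4 (SE 0.22) and 0.25 for Ryr2 (SE 0.19), with adjusted p-values from 0.757 to 0.927 (edgeR). For Actn1, Ryr2 and Ryr3, called after SCL and not after ECL, a difference between the lesions was thus not shown. Itpr1, Atp2a2, Stim1 and Stim2 differed by 0.04 (SE 0.17), -0.11 (SE 0.12), 0.04 (SE 0.19) and 0.02 (SE 0.15).

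The other genes of the pathway were read from 7 lists of 110 genes in all. After SCL, 8 of the 91 tested rose and 16 fell (26.4% called, against 24.6% of all genes), and after ECL 12 of 88 rose and 11 fell (26.1%, against 27.6%). These shares were near the background. The medians of the log2 fold changes were -0.02 in both comparisons. Calls of single genes on these lists were not followed through the alternative settings of the fit.

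Among partners of synaptopodin, including its family, Homer scaffolds and myosins, 4 of 11 genes tested fell after SCL and 4 of 10 after ECL, and none rose. Over all genes tested, 11.6% were called lower after SCL and 12.4% after ECL. The list's median log2 fold change was -0.25 and -0.44, against 0.01 and -0.01 over all genes tested. Magi1, a scaffold that binds synaptopodin and alpha-actinin, went from 65.9 ± 27.6 CPM in controls to 27.1 ± 6.31 after SCL and 21.4 ± 3.23 after ECL (log2 fold changes -1.28 and -1.61, adjusted p = 0.00720 and 0.000818, edgeR). Myo6, a motor that walks towards the minus end of actin filaments, fell by 0.82 and 0.92 on the log2 scale, and Wwc1, the postsynaptic scaffold KIBRA, by 0.74 and 0.97. Myo5a, a motor that draws endoplasmic reticulum into spines, fell by 0.56 and 0.54, from 361 ± 40.7 to 245 ± 16.9 and 247 ± 24.9 CPM.

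Of the regulators of store release and uptake, 7 of 14 were tested, since Ryr1, Itpr3, the other SERCA genes, phospholamban, Strit1 and Trdn were below the minimum. Sri, the calcium-binding ryanodine receptor regulator sorcin, rose by 0.96 after SCL and 0.62 after ECL on the log2 scale (adjusted p = 0.00721 and 0.0453, edgeR). Sln, a small inhibitor of SERCA pumps, fell by 0.62 after SCL, and its log2 fold change after ECL was -0.56 (adjusted p = 0.0888, edgeR). Ahcyl1, an inhibitor of IP3 receptors, rose by 0.76 after ECL. Fkbp1b, a subunit that stabilises ryanodine receptors, rose after ECL by 0.43 at the edge of the threshold (adjusted p = 0.04997, edgeR). After SCL the log2 fold changes of Ahcyl1 and Fkbp1b were 0.39 and -0.04 (adjusted p = 0.134 and 0.891, edgeR). A difference between the lesions was not shown for either gene (adjusted p = 0.669 and 0.566, edgeR).

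In store-operated entry, 1 of 12 genes tested passed the test after SCL (8.33%, against 24.6% of all genes tested). Trpc4, a cation channel of the plasma membrane, fell from 154 ± 56.5 CPM to 90.8 ± 15.1 after SCL and 91.1 ± 6.60 after ECL. The calcium channels of the ORAI family, which STIM proteins open, were not among the genes called.

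Luminal calcium binding proteins split. Hsp90b1, the chaperone GRP94, fell from 706 ± 87.9 CPM to 440 ± 51.8 after SCL and 479 ± 50.8 after ECL, and Calr, calreticulin, fell after SCL from 399 ± 30.4 to 283 ± 28.8 CPM and was at 356 ± 54.9 after ECL (log2 fold change -0.16, adjusted p = 0.425, edgeR). Pdia3, a disulfide isomerase that works with calreticulin, rose by 0.73 and 0.68 on the log2 scale, and Nucb1, a calcium-binding Golgi protein, by 0.68 and 0.86.

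At membrane contacts, 1 of 16 genes tested rose and 3 fell after SCL, and 3 fell after ECL. The share called was 25% and 18.8%, against 24.6% and 27.6% of all genes tested. Micu3, a brain form of the regulators of the mitochondrial calcium uniporter, went from 1299 ± 885 CPM in controls to 418 ± 209 after SCL and 202 ± 31.3 after ECL, with a wide spread among controls. Vapa, which tethers the reticulum to other membranes, fell from 860 ± 331 CPM to 513 ± 84.5 and 393 ± 50.9 CPM, and Mfn2, mitofusin 2, fell by 0.64 and 0.81 on the log2 scale. Of the calcium pumps, exchangers and buffers, Atp2b3 alone was called, with a fall from 9.72 ± 2.04 to 5.98 ± 0.93 CPM after SCL at the edge of the threshold (adjusted p = 0.0498, edgeR). After ECL its log2 fold change was -0.46 (adjusted p = 0.162, edgeR).

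The spine actin list held calls in both directions, with 4 rises and 4 falls among 23 genes for SCL, and 6 rises and 2 falls for ECL. The share called was 34.8% after either lesion, against 24.6% and 27.6% of all genes tested. Cfl1, the actin-severing protein cofilin 1, rose from 284 ± 63.4 CPM to 737 ± 290.0 after SCL and 860 ± 191 after ECL. Arpc3, a subunit of the actin-branching Arp2/3 complex, rose by 0.92 and 0.85 on the log2 scale. Wasf1, which activates that complex, fell from 397 ± 65.4 to 186 ± 38.7 and 195 ± 56.2 CPM, and Actb, beta-actin, fell by 1.35 and 2.04 on the log2 scale from 4408 ± 1707 CPM. Cfl1 and Arpc3, which rose, and Actb, which fell, are also expressed in microglia. Microglia markers were higher in the same libraries, and the part of those cells in these values was not tested.

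**Figure D5:**
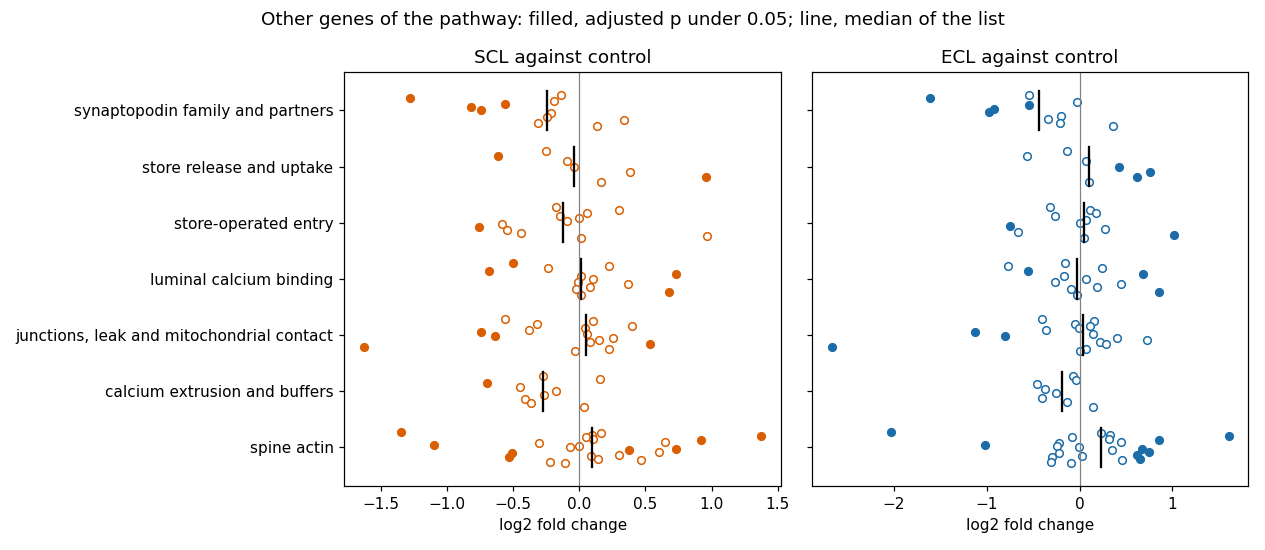
log2 fold change (horizontal axes) of the genes tested in each of the 7 pathway lists after SCL and ECL against control. Filled points have an adjusted p under 0.05 and vertical lines are list medians, which spanned -0.27 to 0.10 for SCL and -0.44 to 0.23 for ECL.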

How the data were processed

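RNA of the CA1 region was sequenced in 13 libraries: 5 control, 4 SCL and 4 ECL. The authors trimmed reads with cutadapt 3.5, mapped them with STAR 2.7.8a to mm10 (GRCm38) and counted them with featureCounts 2.0.1 on GENCODE M25 without strand; the deposited values are raw counts for 55291 symbols. Between 63.0% and 74.3% of low counts were even in each library, so mates were apparently counted separately.

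The 10 genes, the pathway lists and the marker lists were chosen with earlier results of these data known. Pairs of groups were fitted separately with edgeR 4.0.16 in R 4.3.3 (quasi-likelihood test, two-sided) on genes whose mean normalized count reached 150, with TMM factors over the genes tested and Benjamini-Hochberg adjustment over them at 0.05. Standard errors are on the log2 scale. CPM used 1 set of TMM factors over all 13 libraries. Ratios were compared with exact permutation tests (scipy 1.17.1). The code was tested on simulated data. Coordinates and lengths came from GENCODE M21 on GRCm38, in which 53291 symbols were found, and promoters from RefSeq. From the pathway lists, up to 3 called genes per list and lesion with the smallest adjusted p are named, and the 3 genes nearest to Synpo. A gene that this rule selects is not reported here. The alternatives were DESeq2 1.42.0 and its size factors, TMM over all symbols, no minimum count, 1 fit of all libraries, a replicate block, a length and GC offset (mgcv 1.9.3), a sex term, halved counts, a threshold of 0.01, and leaving out each library; a block for the numbers of the column headings was added after seeing the data.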

Additional observations from a re-analysis of the deposited data

Results flagged for a closer look

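Of 30 groups of libraries checked (10 genes in 3 groups), 2 held a library that stood apart from the rest of its group by Dixon's 95% criterion, and chance gives about 1 in 20. Ryr2 stood at 96.5 CPM in ECL 3, where the other ECL libraries held 70.3 to 71.1 CPM. Ryr3 stood at 42.8 CPM in control 3, where the other controls held 23.1 to 28.8 CPM.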

How the results depend on the processing

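Of 531 recomputed fold changes, 483 kept their direction and their side of the threshold, 27 lost a call, 2 gained one and 19 turned sign, while 160 of 174 recomputed ratios kept both and 14 turned sign. For ratios the side of the threshold says little, since a single ratio could not have passed it. The calls of Synpo in both comparisons and of Actn4 after ECL held throughout, and those of Actn1, Ryr2, Ryr3 and Actn4 after SCL did not. The cause was not tested, except that a stricter threshold calls fewer genes by construction. The same-numbered replicates deviated together in few groups (correlations from -0.16 to 0.54). With so few libraries this cannot decide whether the numbers mark a shared animal or day. Nothing in the labels states that they do, so the main fit held no block. With the replicate block, 2356 genes were called after SCL and 2678 after ECL, and Ryr2 after ECL passed the test (-0.48, adjusted p = 0.0410). It changed no other call of the genes described.

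After SCL, 5 of the 10 genes were called, and 3 with TMM over all symbols, 2 without a minimum count (a fit that also scales over all symbols, so that both choices differ), 3 with the length and GC offset, 1 at a threshold of 0.01 and 3 with the heading number as a block, which lost Actn1 and Actn4. Without 1 library it was 2 to 5, with 2 without control 1 or SCL 2 and 3 without SCL 1 or SCL 3. Over all genes, 5390 were called after SCL without a minimum count, 1050 at 0.01, 1824 with the heading block and 1672 to 2828 without 1 library, the lowest being 1672 without SCL 3 and 1904 without SCL 2. After ECL, 8034 were called without a minimum count and 1495 at 0.01. Between ECL and SCL, DESeq2 called 64, the fit without a minimum 217, the single fit 1 and the fit with a sex term 1. Without 1 library it was 0 to 54, with 54 without SCL 3 and 2 without ECL 4.

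Sign changes were all in values whose adjusted p was 0.05 or more. With the length and GC offset, Itpr1 after SCL was 0.0070, Ryr2 after ECL 0.016, Atp2a2 after ECL 0.0037 and Itpr1 between the lesions -0.018. Atp2a2 after ECL was 0.13 both with TMM over all symbols and without a minimum count. With a sex term, the difference between ECL and SCL was -0.11 for Actn1, -0.13 for Stim1 and -0.026 for Stim2. Leaving out 1 library gave -0.025 to 0.11 for Atp2a2 after SCL, and between the lesions -0.057 to 0.16 for Itpr1, -0.098 to 0.18 for Stim1 and -0.078 to 0.13 for Stim2. Among ratios it gave -0.045 to 0.18 for Ryr3 to Ryr2 and -0.82 to 0.21 for Actn1 to Actn2 between ECL and control. Between ECL and SCL it gave -0.14 to 0.20 for Stim1 to Stim2, -0.41 to 0.31 for Synpo to Actn2, -0.21 to 0.81 for Actn1 to Actn2 and -0.017 to 0.95 for Actn4 to Actn2.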
